A study of Mus musculus with 9 samples.

Results

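The genes examined here load and switch on the replicative DNA helicase: the hexamer subunits Mcm2, Mcm3, Mcm4, Mcm5, Mcm6 and Mcm7, the loading factors Cdc6 and Cdt1, and Mcm10 and Cdc45, which act when a loaded helicase fires. They were chosen by name, and all 10 were found among the 43629 Ensembl genes of the deposited table. Expression was measured by RNA-seq in bone marrow cells of C57BL/6 mice selected for c-KIT (CD117), the receptor for stem cell factor carried by blood stem and progenitor cells. There were 9 libraries in 3 groups of 3. The mice of the first group were Chd7f/f, Mx1-Cre, Cbfb+/56M (KI_Chd7del), those of the second Mx1-Cre, Cbfb+/56M (KI), and those of the third were labelled WT. Mice of all 3 groups had been treated with pIpC, a synthetic RNA that induces interferon. Interferon switches on Mx1-Cre, a Cre recombinase gene under the Mx1 promoter, which is active in blood-forming cells and in other interferon-responsive tissues. The Cbfb 56M allele is the conditional knock-in of Cbfb-MYH11, the fusion gene of a subtype of human acute myeloid leukaemia, and Chd7 encodes a chromatin remodelling ATPase. The WT label names no Cre, so the fusion and Cre cannot be told apart in a comparison with WT. The ages of the mice, and whether each library was made from a different mouse, are not given in the sources used here, so the p-values measure only the spread between these samples.

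Before S phase, in G1, the origin recognition complex, CDC6 and CDT1 place rings of the MCM proteins on DNA at future origins, a step called licensing. Each ring holds 1 copy of each of the subunits MCM2 to MCM7, which are related ATPases. In S phase the kinases CDC7-DBF4 and CDK turn the loaded ring into the active helicase, which then also holds CDC45 and the GINS complex, with MCM10 needed for the step. Geminin and the destruction of CDT1 keep origins from being licensed again in the same cell cycle. In blood as in other tissues these genes are transcribed under E2F control in cycling cells and are low in resting cells.

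Judged from their spacing, the values look like read numbers per gene divided by a size factor for each library and rounded. They are called normalised values here. The library totals of these values were 37538447 to 38076394 in KI_Chd7del, 37716763 to 39002839 in KI and 43222301 to 46159426 in WT. The larger WT totals went with the late neutrophil genes, whose 20 listed members took 4.35% to 5.73% of the total in KI_Chd7del, 1.14% to 2.99% in KI and 11.8% to 14.1% in WT. Scaling to the column total raised the median log2 fold change of all 15997 genes tested to 0.26 in KI_Chd7del against WT and to 0.25 in KI against WT, while it was 0.02 in both as deposited, so the comparisons of the 10 genes and of the pathway lists with WT are given under both scalings. Kit, which encodes the receptor used for selection, stood at 6131, 7732 and 8508 in KI_Chd7del, 3868, 3226 and 3521 in KI, and 7362, 7354 and 7797 in WT. Myh11, part of the fusion, was at 164 to 187 in KI_Chd7del and 176 to 219 in KI, against 5 to 9 in WT, as the labels require. Chd7 was at 1794 to 1921 in KI_Chd7del, 1979 to 2934 in KI and 3471 to 3982 in WT. It was called lower in KI than in WT (log2 fold change -0.72, adjusted p = 0.00154 by limma), also when scaled to the column total (-0.49, adjusted p = 0.0101). In KI_Chd7del against KI, Chd7 did not pass (-0.29, adjusted p = 0.121). A value summed over the gene does not show the loss of an exon. KI_Chd7del library 1 stood apart from its group, at 45.9 on the third principal component of all genes (5.28% of the variance) against -19.5 and -28.7.

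All 10 genes were well measured, with no value under 2493, and for all 10 the mean of KI_Chd7del lay between those of KI, the lowest, and WT, the highest. The hexamer subunits come first. Mcm2 (ENSMUSG00000002870, chromosome 6, 88883474 to 88898780, GRCm38) had 11744, 12742 and 12845 in KI_Chd7del, 11149, 10627 and 10853 in KI, and 14562, 13916 and 14583 in WT. The 3 groups of Mcm2 did not overlap. Mcm3 (ENSMUSG00000041859, chromosome 1, 20802968 to 20820312) had 12880, 15730 and 15522 in KI_Chd7del, 12111, 12006 and 12036 in KI, and 16664, 15459 and 15701 in WT. KI libraries were close together and lowest, while 2 of the KI_Chd7del libraries reached the WT range. Mcm4 (ENSMUSG00000022673, chromosome 16, 15623897 to 15637400) had 10023, 10762 and 11049 in KI_Chd7del, 9522, 9403 and 9205 in KI, and 14118, 12754 and 13330 in WT. Mcm5 (ENSMUSG00000005410, chromosome 8, 75109569 to 75128439) had 13399, 15047 and 14996 in KI_Chd7del, 12599, 12536 and 12129 in KI, and 19392, 18621 and 19012 in WT. For Mcm4 and Mcm5 the KI_Chd7del libraries lay between the others without overlap, nearer to KI. Mcm6 (ENSMUSG00000026355, chromosome 1, 128331590 to 128359664) had 19280, 20873 and 21376 in KI_Chd7del, 17529, 17201 and 17237 in KI, and 24060, 21611 and 21875 in WT. Mcm7 (ENSMUSG00000029730, chromosome 5, 138164583 to 138172422) had 13438, 14770 and 15645 in KI_Chd7del, 12979, 13543 and 12624 in KI, and 20601, 18540 and 19345 in WT. Mcm6 of KI_Chd7del lay closer to WT than to KI, and Mcm7 of KI_Chd7del overlapped with KI. Mcm7 also hosts the microRNAs Mir25, Mir93 and Mir106b, whose own entries averaged 0, 0 and 0.33, and it overlaps Ap4m1 on the other strand by 421 bases, so a share of its reads is uncertain if strand was not used in counting.

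The loading factors were less abundant. Cdc6 (ENSMUSG00000017499, chromosome 11, 98907801 to 98923940), the ATPase that joins the origin recognition complex to load the ring, had 3035, 3299 and 3345 in KI_Chd7del, 3026, 3043 and 2692 in KI, and 5119, 4911 and 4742 in WT. Cdt1 (ENSMUSG00000006585, chromosome 8, 122568015 to 122573554), which brings the ring to the origin, had 2971, 3062 and 3368 in KI_Chd7del, 3094, 2981 and 3242 in KI, and 4694, 4321 and 4237 in WT. For both loading factors the KI_Chd7del and KI libraries overlapped and all 6 lay below WT. Mcm10 (ENSMUSG00000026669, chromosome 2, 4989714 to 5012791), which is not related to the ring subunits despite its name, had 2812, 2976 and 2973 in KI_Chd7del, 2668, 2864 and 2579 in KI, and 3784, 3743 and 3773 in WT. Cdc45 (ENSMUSG00000000028, chromosome 16, 18780447 to 18811987), part of the active helicase, had 3409, 3551 and 3504 in KI_Chd7del, 2493, 2957 and 2495 in KI, and 4904, 4522 and 4605 in WT. Mcm10 split only from WT, whereas the 3 groups of Cdc45 were apart. Cdc45 overlaps its neighbour Ufd1 on the other strand by 209 bases. Cdt1 lies, over its whole length, within the annotated gene Gm20388 on the same strand (5540 bases shared), which averaged 0. Shared reads were thus not assigned to Gm20388, while a read from it could have been assigned to Cdt1. The 3 libraries of a group stayed within a coefficient of variation of 0.447% (Mcm3 in KI) to 10.8% (Mcm3 in KI_Chd7del). KI_Chd7del library 1 was the lowest of its group for all 10 genes. In the same library the summed values of the mitosis list (186412 against 166741 and 177033) and of the list of S phase cyclins and kinases (31397 against 28245 and 29041) were the highest of the group, as was that of the late neutrophil list (2181043 against 1656489 and 1657608).

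**Figure D1:**
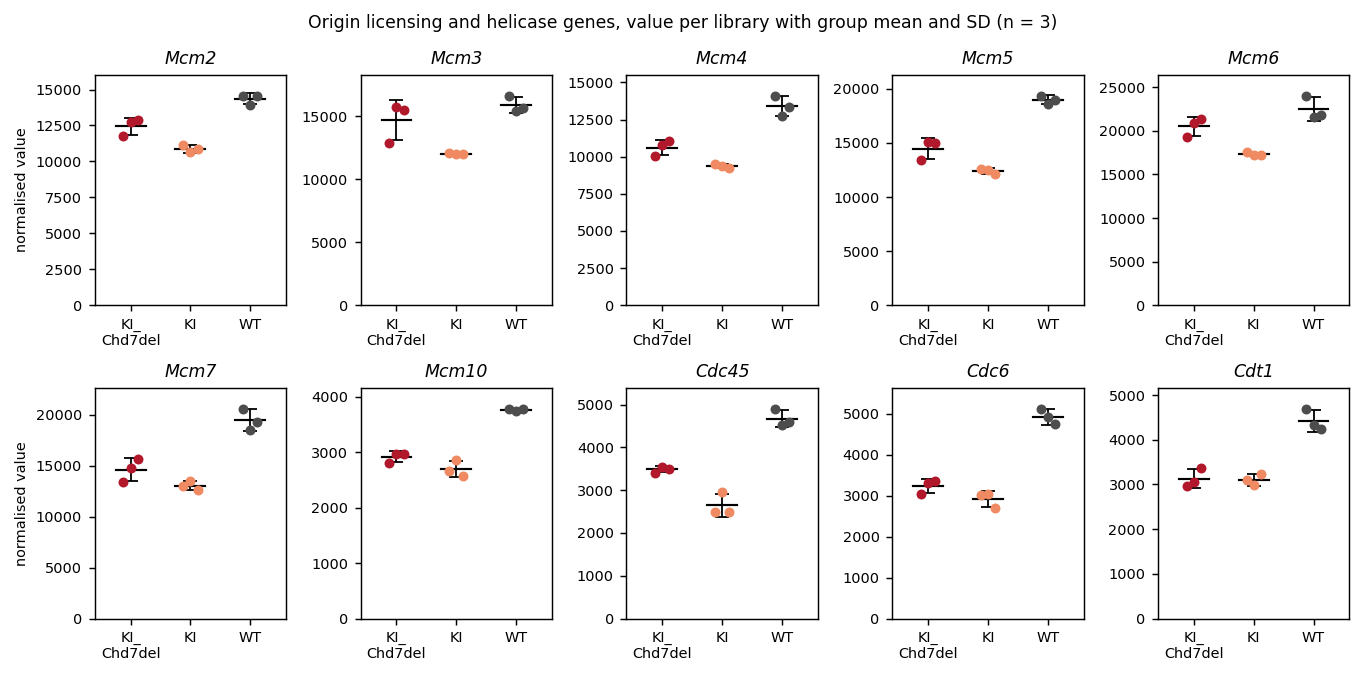
Normalised value of each of the 10 genes (y axis, from 0) in each library of KI_Chd7del, KI and WT (x axis, 1 point per library); bars are group means with SD, n = 3. WT is highest and KI lowest by mean in each panel, with Cdt1 almost level between KI_Chd7del (70.9% of the WT mean) and KI (70.3%).

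Levels were compared between genes per kilobase of transcript. Over the longest annotated transcript of each gene, the ring subunits in WT ran from 3730 ± 191 for Mcm4 and 4110 ± 109 for Mcm2 through 4650 ± 186 for Mcm3, 5170 ± 309 for Mcm6 and 5620 ± 114 for Mcm5 to 6580 ± 351 for Mcm7 (SD, n = 3). The mean ± SD ranges of neighbours in this order did not overlap. Each of the 4 other genes was below each ring subunit on this scale, with Cdc45 at 2180 ± 93.8, Cdt1 at 1640 ± 90.2, Cdc6 at 1030 ± 39.3 and Mcm10 at 774 ± 4.36 in WT. Over the union of all annotated exons, which is 6956 bases against a longest transcript of 3494 bases for Mcm2, Mcm2 became the lowest ring subunit at 2060 ± 54.5 and Mcm6 the highest at 4830 ± 288, with Mcm5 within its SD at 4760 ± 96.5. The gap between the ring and the other genes stood on both scales, and the order within the ring depended on the length used.

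The first comparison set KI against WT, that is the fusion allele and Mx1-Cre without the Chd7f/f alleles. All 10 genes fell in KI, to between 56.6% and 76.9% of the WT mean. The falls were largest for Cdc45 (log2 fold change -0.82, SE 0.07, adjusted p = 1.21e-05 by limma) and Cdc6 (-0.76, SE 0.06, adjusted p = 1.14e-05). Among the ring subunits, Mcm5 (-0.61) and Mcm7 (-0.58) fell most, Mcm4 by 0.51 on the log2 scale, and Mcm2, Mcm3 and Mcm6 least (-0.40, -0.40 and -0.38, with SE of 0.05, 0.08 and 0.06 and adjusted p of 0.000141, 0.00155 and 0.000603). Cdt1 (-0.51) and Mcm10 (-0.48) were in the middle of the range. Of all genes tested, 27.2% were called lower and 31.8% higher in this comparison, and in 31.8% the KI libraries lay below the WT libraries without overlap, as they did for all 10 genes. The median of the 10 genes was -0.51, beside 0.02 over all genes tested. Scaled to the column total, the 10 fold changes stayed negative, with a median of -0.28 beside 0.25 over all genes, and 8 passed, against 15.7% of all genes called lower. The 2 that no longer passed with this scaling were Mcm3 (-0.17, adjusted p = 0.109) and Mcm6 (-0.15, adjusted p = 0.118). In bulk samples fewer cells of a cycling type and less of these RNAs per cell cannot be told apart. Cell type markers moved in the same comparison. All 20 late neutrophil genes and 7 of 8 early granule genes fell in KI, 10 of 12 monocyte genes rose and 1 fell, and Kit fell (-1.09, SE 0.11, adjusted p = 3.88e-05). The part of these shifts in the values of the helicase genes was not tested.

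The start of these genes is shown because E2F is their textbook regulator. RefSeq promoter windows of 300 bases (250 before to 50 after the start, GRCm38.p6) were found for 9 of the 10 genes, all but Mcm4, with a second window for Mcm7. They were searched on both strands for the E2F letters TTTCCCGC, TTTCGCGC, TTTGCCGC and TTTGGCGC, whose forward and reverse matches may overlap, and for CCAAT, the box bound by NF-Y. An E2F match was present for 6 of the 9 genes, in 6 of their 10 windows, and in 2.26% of all 32851 windows of the same length. It was found for Mcm3, Mcm5, Mcm6, Mcm7, Cdc6 and Cdt1, and not for Mcm2, Mcm10 and Cdc45. CCAAT was present for 7 of the 9 genes, all but Cdc6 and Cdt1. It was in 8 of their 10 windows and in 37.4% of all windows. Shown here are the 250 bases before the start of Mcm5 and Mcm6, ring subunits with matches there, and of Mcm2 and Cdc45, which had no E2F match, Cdc45 being the gene with the largest fall. The windows are chr8:75109259-75109508 on the plus strand, chr1:128359706-128359955 on the minus strand, chr6:88898781-88899030 on the minus strand, and chr16:18811973-18812222 on the minus strand. Each is written 5′ to 3′ along its gene with E2F and CCAAT matches in capitals.
Mcm5: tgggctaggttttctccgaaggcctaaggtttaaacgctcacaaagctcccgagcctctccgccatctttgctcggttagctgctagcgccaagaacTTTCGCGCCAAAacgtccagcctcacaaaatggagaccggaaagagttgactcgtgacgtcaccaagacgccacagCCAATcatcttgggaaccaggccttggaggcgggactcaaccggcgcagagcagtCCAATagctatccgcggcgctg
Mcm6: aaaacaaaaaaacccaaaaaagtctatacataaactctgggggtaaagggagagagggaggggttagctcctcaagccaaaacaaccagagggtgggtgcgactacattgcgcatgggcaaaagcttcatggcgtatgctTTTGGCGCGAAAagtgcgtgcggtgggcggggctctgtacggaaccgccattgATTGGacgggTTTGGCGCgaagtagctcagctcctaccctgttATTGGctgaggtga
Mcm2: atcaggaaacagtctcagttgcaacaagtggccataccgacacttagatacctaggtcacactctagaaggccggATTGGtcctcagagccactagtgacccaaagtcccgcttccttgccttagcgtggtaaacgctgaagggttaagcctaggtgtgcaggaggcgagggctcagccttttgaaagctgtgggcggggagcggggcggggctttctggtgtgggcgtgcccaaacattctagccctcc
Cdc45: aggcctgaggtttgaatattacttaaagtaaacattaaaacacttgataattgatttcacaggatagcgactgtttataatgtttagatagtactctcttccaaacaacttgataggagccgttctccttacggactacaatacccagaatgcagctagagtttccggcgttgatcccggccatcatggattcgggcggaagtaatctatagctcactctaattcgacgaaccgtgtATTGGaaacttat

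In Mcm5 a forward match 153 bases before the start and a reverse match 149 bases before it share letters, and in Mcm6 the same holds at 110 and 106 bases, with a further match at 47. Mcm7 had its match 165 bases before the start and another at base 17 after it, and Cdc6 had 1 match at 138 bases before the start. Mcm3 and Cdt1 had their matches after the start, at bases 20 and 39 and at base 33. Cdc45 had CCAAT on the reverse strand 13 and 2 bases before its start, of which the nearer runs past the start and is not in capitals. In KI against WT, Cdc6 (-0.76) and Mcm6 (-0.38) had a match and Cdc45 (-0.82) and Mcm2 (-0.40) had none. Whether a match went with the size of the fall was not tested. These matches describe letters in a window and do not show that a factor was bound.

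The second comparison, KI_Chd7del against KI, asked what the Chd7 alleles changed where the fusion was present. It shares the KI libraries with the first comparison, so a fall there and a rise here are not independent results. The helicase genes were higher in part. Cdc45 rose (log2 fold change 0.40, SE 0.07, adjusted p = 0.00247 by limma), as did 5 ring subunits, Mcm3 (0.28, SE 0.08, adjusted p = 0.0178), Mcm6 (0.24), Mcm5 (0.22), Mcm2 (0.19) and Mcm4 (0.18, SE 0.06, adjusted p = 0.0319). Mcm7 (0.16, adjusted p = 0.0872), Cdc6 (0.14, adjusted p = 0.101) and Mcm10 (0.11, adjusted p = 0.108) did not pass. Cdt1 was at 0.01 (SE 0.06, adjusted p = 0.897), with 3134 ± 208 in KI_Chd7del and 3106 ± 131 in KI (SD, n = 3). The 6 genes called were those whose libraries did not overlap. Of all genes tested, 17.5% were called higher and 22.9% lower, and 23.8% were higher without overlap. The median of the 10 genes was 0.19, beside -0.01 over all genes tested, and 6 also passed when scaled to the column total, where 17.7% of all genes were called higher. The fold changes of these 6 genes stayed positive under all other settings run (lowest 0.15, Mcm4), but the count changed when single libraries were left out. It was 2 without KI_Chd7del library 2 (Cdc45 and Mcm6), 1 without KI_Chd7del library 3 (Cdc45), 3 without KI library 3 (Cdc45, Mcm3 and Mcm6) and 8 without KI_Chd7del library 1, which is the lowest for all 10 genes. Cdc45 passed under each of the 21 other settings run (highest adjusted p = 0.0119). Mcm4 was the least steady of the 6, no longer past the test under 8 of those settings (adjusted p = 0.0502 to 0.109). Kit rose in the same comparison (1.07, SE 0.11, adjusted p = 0.000212), as did all 8 early granule genes and 17 of 20 late neutrophil genes. Of 12 monocyte genes 9 fell and 2 rose, and of 12 erythroid genes 10 fell and 1 rose. The part of these shifts was not tested.

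In the third comparison KI_Chd7del was set against WT, with the fusion and the Chd7 alleles measured together. This comparison shares its libraries with the other two. As deposited, 8 of the 10 genes were lower in KI_Chd7del, against 24.3% of all genes tested. Cdc6 fell by 0.61 on the log2 scale (SE 0.06, adjusted p = 9.06e-05 by limma) and Cdt1 by 0.50 (SE 0.06, adjusted p = 0.000285). Cdc45 (-0.42), Mcm7 (-0.42), Mcm5 (-0.39), Mcm10 (-0.37), Mcm4 (-0.34) and Mcm2 (-0.21, adjusted p = 0.0091) also passed. Mcm6 (-0.13, adjusted p = 0.0985) and Mcm3 (-0.12, adjusted p = 0.221) did not. In 9 genes, all but Mcm3, the KI_Chd7del libraries lay below WT without overlap, as in 28.8% of all genes. The number of these calls depended on the scaling. It was 8 with relative log expression and with upper-quartile factors, as with the deposited values. With totals without the late neutrophil genes it was 7 (median -0.27), and with quantile normalisation 5. Scaled to the column total, Cdc6 (-0.36, adjusted p = 0.00224) and Cdt1 (-0.25, adjusted p = 0.025) were the only ones of the 10 that passed, against 11.8% of all genes called lower, and Mcm2, Mcm3 and Mcm6 turned to 0.04, 0.13 and 0.11. The median of the 10 was -0.38 as deposited, beside 0.02 over all genes, and -0.13 beside 0.26 when scaled to the column total. KI_Chd7del stood at 65.5% of the WT mean for Cdc6, 70.9% for Cdt1 and 75.0% for Mcm7, and at 92.3% for Mcm3 and 91.1% for Mcm6.

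**Figure D2:**
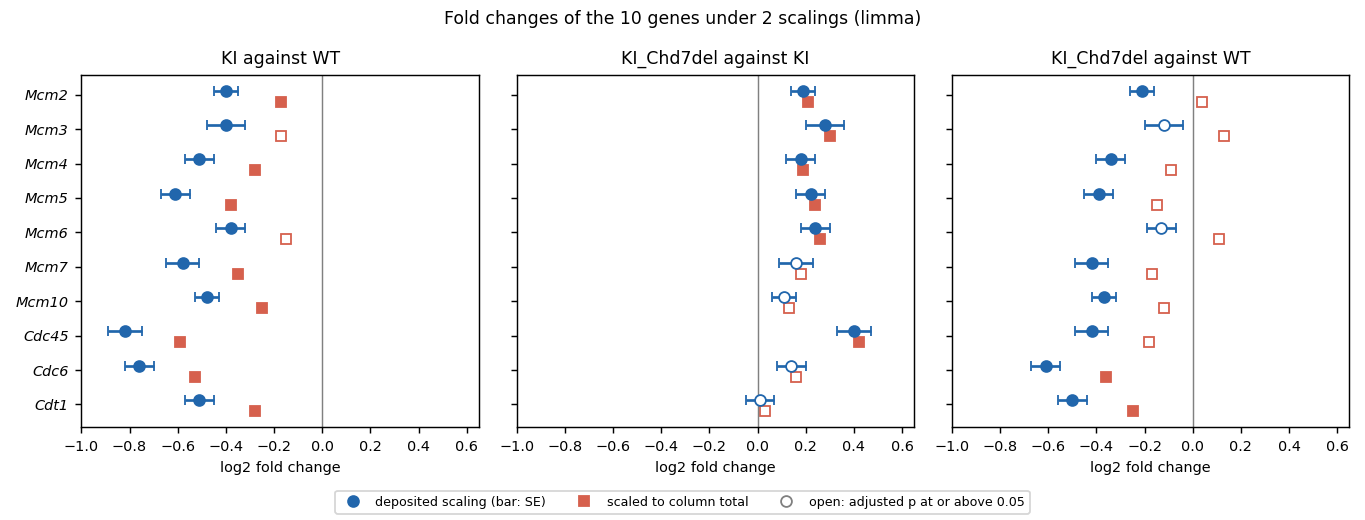
Log2 fold change of each gene (x axis) in the 3 comparisons; circles are the deposited scaling with SE and squares the values scaled to the column total, filled where the adjusted p was under 0.05. Squares lie to the right of circles in both comparisons with WT, and Cdc6 and Cdt1 are the filled squares in the comparison of KI_Chd7del with WT.

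A measure that no factor applied to a whole library can move is the level of a gene relative to the mean of the ring subunits in the same library, on the log2 scale. On this scale the relative levels of the ring subunits are described by overlap of libraries, and their differences were not tested. Mcm2, Mcm3 and Mcm6 were relatively higher in KI than in WT, by 0.08, 0.08 and 0.10, and Mcm5, Mcm7 and Mcm4 were relatively lower, by differences of -0.13, -0.10 and -0.03. For each of the 6 subunits the KI and WT libraries did not overlap. Without overlap, 65.8% of all genes tested were relatively higher and 10.2% relatively lower. The mean of the ring itself fell in KI, so such shares are no benchmark for the 6 subunits that make up that mean. By construction the 6 differences balance each other. Mcm5, for example, was at 0.02, 0.02 and 0.00 in KI, against 0.12, 0.17 and 0.16 in WT. In KI_Chd7del, Mcm5 was at 0.02, 0.04 and 0.01, and of the 6 subunits only Mcm6 split from KI (higher by 0.03), while 10.7% of all genes were relatively higher. Against WT, Mcm2, Mcm3 and Mcm6 were relatively higher in KI_Chd7del by 0.06, 0.15 and 0.13 and Mcm4, Mcm5 and Mcm7 relatively lower (-0.07, -0.13 and -0.15), all without overlap. Of all genes tested, 50.1% were relatively higher and 11.0% relatively lower without overlap in that comparison, which shares the WT libraries with the previous one.

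Levels relative to the ring were also read for the genes outside it. Cdc6 was relatively lower in KI (-2.08 ± 0.08) than in WT (-1.80 ± 0.05; SD, n = 3), and was at -2.14 ± 0.02 in KI_Chd7del. Cdc45 was relatively lower in KI (-2.22 ± 0.14) than in WT (-1.88 ± 0.01). In KI_Chd7del, Cdc45 was at -1.95, -2.05 and -2.09, against -2.32, -2.06 and -2.28 in KI, where KI library 2 overlapped with KI_Chd7del. Cdt1 behaved otherwise, with KI (-2.01, -2.05 and -1.90) overlapping WT (-1.93, -1.94 and -2.01). In KI_Chd7del, Cdt1 was at -2.15, -2.26 and -2.15, relatively lower than in both other groups without overlap, where 44.1% of all genes were relatively lower in KI_Chd7del than in KI. Mcm10 overlapped in all 3 comparisons. These differences were not tested.

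**Figure D3:**
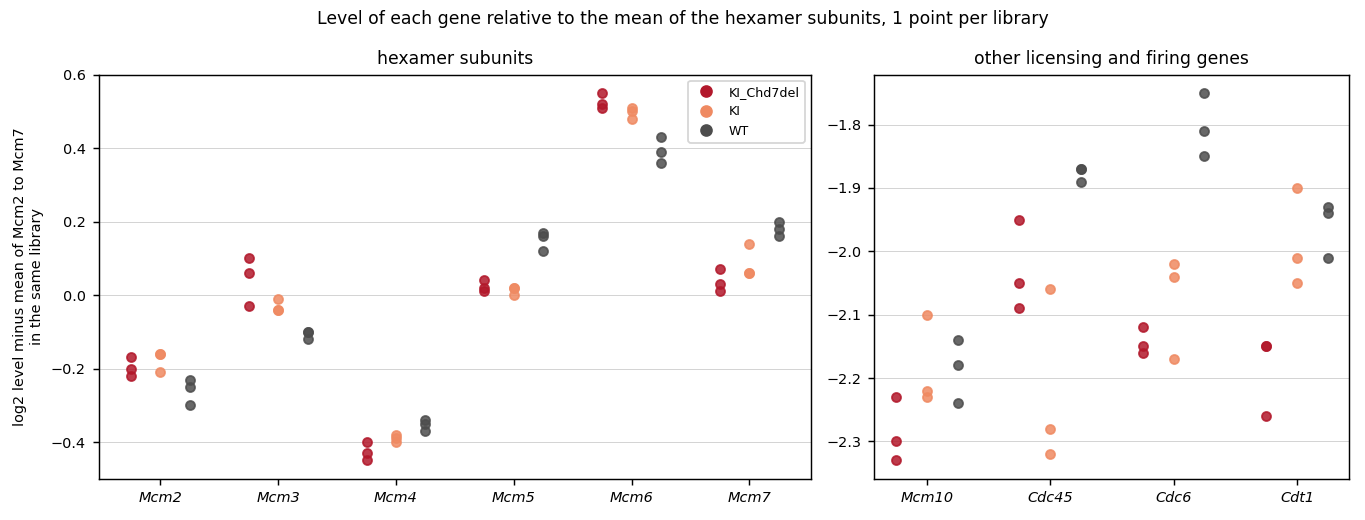
Log2 level of each gene minus the mean log2 level of Mcm2 to Mcm7 in the same library (y axis, with different ranges in the 2 panels), 1 point per library, for KI_Chd7del, KI and WT. Mcm6 is the highest and Mcm4 the lowest subunit in each group, on values not divided by transcript length. Mcm5 and Mcm7 are relatively lower and Mcm3 and Mcm6 relatively higher in KI_Chd7del and KI than in WT. Cdt1 is lowest in KI_Chd7del.

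The other genes of the pathway were read from lists by role, and values of single genes are as deposited unless the column total is named. In KI against WT, 5084 of all 15997 genes tested were called higher and 4345 lower as deposited (median log2 0.02). Scaled to the column total, 7197 were called higher and 2506 lower (median 0.25). The calls in KI against WT given here for Orc1, Mcm8, Cdc7, Gmnn, Dtl, Rrm2, Cdc25a, Chek1, Atr, Tfdp1 and Rb1 also passed, in the same direction, when scaled to the column total. Within the active helicase, all 4 GINS genes fell in KI against WT (median log2 -0.47), 2 of them when scaled to the column total (median -0.24). Between KI_Chd7del and KI, Gins3 (0.37, adjusted p = 0.0084 by limma) and Gins1 (0.22, adjusted p = 0.0121) rose and none fell (median 0.21). Gins3 had 951, 840 and 833 in KI_Chd7del, against 628, 753 and 649 in KI. Of the 6 genes of the origin recognition complex, which marks the sites of loading, 4 fell and none rose in KI against WT (median -0.31, or -0.08 with 2 lower and 1 higher when scaled to the column total). Orc1, the subunit whose level follows the cell cycle in mammals, fell by 0.90 on the log2 scale (adjusted p = 4.7e-05). Orc1 had 636, 494 and 558 in KI_Chd7del, 504, 508 and 463 in KI, and 962, 898 and 897 in WT. Orc6 was, in KI_Chd7del against KI, called higher (0.20) and Orc5 lower (-0.19), and neither passed when scaled to the column total (0.22, adjusted p = 0.0541, and -0.17, adjusted p = 0.089). Mcm8, a relative of the ring subunits with a role in recombination, fell in KI against WT (-0.47, adjusted p = 0.000181) and rose in KI_Chd7del against KI (0.52, adjusted p = 0.000398), while its relative Mcm9 passed neither test as deposited (0.14, adjusted p = 0.0537, and -0.13, adjusted p = 0.091). Scaled to the column total, Mcm9 was called higher in KI against WT (0.37, adjusted p = 0.000991).

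Origin firing is started by kinases and their partner factors. Of the 8 firing kinases and factors, 7 fell in KI against WT (median log2 -0.34, or -0.11 with 3 lower when scaled to the column total). In KI_Chd7del against KI, 0 of 8 passed by limma, also 0 at an unadjusted p under 0.05, with a median of 0.03 as deposited and 0.05 to 0.11 over 5 other scalings, which also called none. Cdc7, the kinase that phosphorylates the ring, had 1350, 1036 and 1192 in KI_Chd7del, 1040, 1288 and 1034 in KI, and 1989, 2041 and 2050 in WT. Cdc7 fell by 0.86 in KI against WT (adjusted p = 0.000136) and differed by 0.09 between KI_Chd7del and KI (adjusted p = 0.544). Whether this list and the ring differed in their response was not tested. Among 7 genes that restrain licensing or destroy its factors, 3 fell and 2 rose in KI against WT (median 0.00), or 3 lower and 3 higher when scaled to the column total (median 0.23). Gmnn, which encodes geminin, was at -0.68 (adjusted p = 7.21e-05). Gmnn had 2602, 2217 and 2210 in KI_Chd7del, 2178, 2247 and 2008 in KI, and 3650, 3282 and 3362 in WT. Dtl, which marks CDT1 for destruction, fell in KI against WT (-0.51, adjusted p = 0.000246) and was called higher in KI_Chd7del against KI (0.20, adjusted p = 0.049), while it was at 0.22 (adjusted p = 0.0792) when scaled to the column total.

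Behind the helicase, DNA is copied by polymerases held on the clamp. Of 20 genes of the replicative polymerases, clamp and clamp loader, 15 fell and 3 rose in KI against WT (median log2 -0.38, or -0.15 with 10 lower and 4 higher when scaled to the column total). With the Chd7 alleles added, in KI_Chd7del against KI, 11 rose and 2 fell (median 0.15, or 0.17 with 10 higher and 2 lower). Pcna, the sliding clamp, had 17071, 15862 and 16235 in KI_Chd7del, 14815, 14653 and 14503 in KI, and 21887, 19994 and 20749 in WT. Of 8 nucleotide supply genes, 6 fell and none rose in KI against WT (median -0.52, or -0.29 with 5 lower and 1 higher), led by Rrm2, a ribonucleotide reductase subunit (-0.92). Of those 8, 3 rose in KI_Chd7del against KI, among them Dut (0.30, adjusted p = 0.00522), the enzyme that removes dUTP, while Rrm2 was at 0.10 (adjusted p = 0.244). All 6 S phase cyclins, kinases and their phosphatase fell in KI against WT under both scalings. Cdc25a, the phosphatase that activates CDK2, had 5004, 5135 and 4713 in KI_Chd7del, 2902, 3512 and 2482 in KI, and 7859, 8023 and 8027 in WT. Cdc25a fell in KI against WT (-1.44, adjusted p = 5.09e-06) and rose in KI_Chd7del against KI (0.75, adjusted p = 0.000844). Of 9 tested genes of fork protection and the checkpoint, 5 fell and 2 rose in KI against WT (median -0.20), or 2 lower and 3 higher when scaled to the column total (median 0.03). Under both scalings 3 rose and 1 fell in KI_Chd7del against KI. Chek1, the replication checkpoint kinase, fell in KI against WT (-0.58, adjusted p = 4.16e-05) and rose in KI_Chd7del against KI (0.48, adjusted p = 0.000483). Atr, its upstream kinase, rose in KI against WT (0.68) and fell in KI_Chd7del against KI (-0.29).

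Transcripts of mitosis were set beside these. Of 20 mitosis genes, 15 fell and none rose in KI against WT (median log2 -0.36, or -0.13 with 8 lower and 2 higher when scaled to the column total). None of the 20 rose in KI_Chd7del against KI as deposited by limma, and 3 fell (median -0.09). At an unadjusted p under 0.05, 0 rose and 6 fell. With quantile normalisation 1 rose, 1 fell and the median was 0.02. Birc5, survivin, had 4939, 4089 and 4317 in KI_Chd7del, 4405, 4690 and 4252 in KI, and 7291, 6908 and 7037 in WT. In that comparison 6 of the 10 helicase genes and 0 of 20 mitosis genes were called higher in KI_Chd7del than in KI, where 17.5% of all genes were, and this difference between the lists was not tested. Among 13 genes of E2F factors, their partners and the pocket proteins that hold them, 7 fell and 2 rose in KI against WT (median -0.24, or -0.01 with 4 each way when scaled to the column total). Tfdp1, the E2F partner, had 11700, 12743 and 12775 in KI_Chd7del, 9687, 10581 and 9114 in KI, and 19440, 19593 and 19737 in WT. Tfdp1 fell to 0.499 of its WT level in KI (adjusted p = 2.29e-06) and rose in KI_Chd7del against KI (0.34, adjusted p = 0.00316). Rbl2, the pocket protein p130 of resting cells, went the other way, with 3407, 3304 and 3272 in KI_Chd7del, 5110, 4848 and 5053 in KI, and 3106, 3214 and 3387 in WT. Rb1, the retinoblastoma gene, had 3788, 3474 and 3580 in KI_Chd7del, 6809, 6380 and 7201 in KI, and 5361, 5174 and 5331 in WT. Rb1 fell in KI_Chd7del against KI (-0.91, adjusted p = 2.23e-05) and rose in KI against WT (0.36, adjusted p = 0.00046).

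Set against WT, KI_Chd7del was lower in 18 of 20 mitosis genes, 7 of 8 firing genes and all 6 S phase cyclins, kinases and their phosphatase, and higher in none of them (medians -0.40, -0.42 and -0.52 on the log2 scale). Scaled to the column total, 9, 3 and 4 genes of these lists were lower and 1 mitosis gene was higher (medians -0.15, -0.18 and -0.28). Of all 15997 genes tested, 7004 were called higher and 1892 lower on that scaling (median 0.26). As deposited, 3842 were called higher and 3893 lower (median 0.02). Of the 20 polymerase and clamp genes 11 were lower and 2 higher (median -0.21), or 1 lower and 5 higher when scaled to the column total (median 0.04). For the GINS complex 3 of 4 were lower (median -0.22), and 1 when scaled to the column total (median 0.03). The origin recognition complex had 4 of 6 lower (median -0.31), against 1 lower and 2 higher when scaled to the column total (median -0.06).

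**Figure D4:**
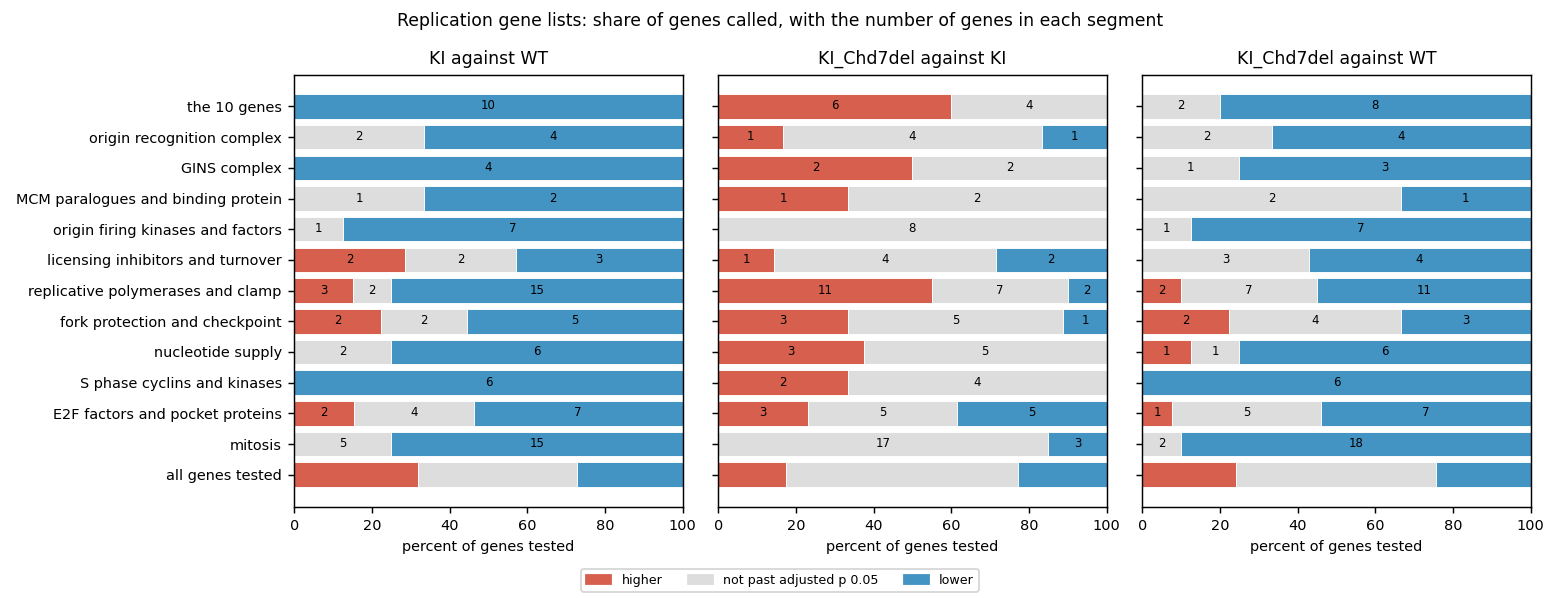
Share of tested genes called higher, not past the test, or lower (x axis, percent; numbers are genes) for the 10 genes, 11 other replication lists and all genes tested, in the 3 comparisons at the deposited scaling. In KI_Chd7del against KI the 10 genes and the polymerase and clamp list show the largest higher shares, 6 of 10 and 11 of 20, and the firing and mitosis lists show none.

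The pattern over the 9 libraries was also compared with every other gene. As a description of 3 groups, with no test, Mcm2 to Mcm7 correlated with the mean of the other 5 subunits at a Pearson r of 0.92 (Mcm3) to 0.988 (Mcm2), and Cdc45, Mcm10, Cdc6 and Cdt1 with the mean of all 6 at 0.961, 0.948, 0.947 and 0.888. The points share the same 3 group levels, so any gene with that order of groups scores high. Among 8407 other genes that averaged at least 500, the 8 most alike were Ssrp1 (0.997), Slc16a1 (0.997), Tm7sf3 (0.991), Prodh, Sephs2 (both 0.988), Isy1 (0.987), Dld and Fpgs (both 0.985). Ssrp1, a subunit of the histone chaperone FACT, which works at replication forks, had 17698, 19609 and 20027 in KI_Chd7del, 16532, 16549 and 15817 in KI, and 24351, 23036 and 23176 in WT. Slc16a1, a lactate transporter, had 4443, 5186 and 5277 in KI_Chd7del, 4184, 4025 and 4094 in KI, and 6687, 6098 and 6102 in WT. Among the 8 with the most opposite pattern were Stx4a (-0.993), Ints6, Hps5, Slc38a2, Gab2, Ulk1 and Med13 (-0.983). Gab2, a signalling adaptor downstream of cytokine receptors, had 4442, 3021 and 2575 in KI_Chd7del, 8563, 6788 and 8657 in KI, and 1349, 1443 and 1436 in WT. Gab2 and Ulk1, an autophagy kinase, were highest in KI and lowest in WT, the reverse of the ring.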

How the data were processed

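RNA-seq of c-KIT+ bone marrow was deposited as values for 43629 genes in 9 libraries. The deposited values have the unit score. Their spacing looks like that of read numbers divided by a size factor per library and rounded, which is an inference. No count test was therefore run, and depth in reads is not known exactly. The build GRCm38 and the tools STAR 2.4, RSEM, CASAVA 1.8.2 and DESeq2 are named, with no role or order, in the notes on processing by the submitters. The annotation release and the use of strand are not given in the sources used here.

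Symbols for 42462 genes, coordinates and lengths came from GENCODE M21 (GRCm38), and promoters from RefSeq. limma 3.58.1 with a mean-variance trend was fitted to log2(value + 1) over all 9 libraries in 3 groups, without a replicate block, keeping genes that reached 10 in 3 or more libraries. A fold change on this scale understates changes of low genes. The p-values are 2-sided, adjusted by Benjamini-Hochberg over all 15997 genes, with a threshold of 0.05. The fit was tested on simulated data. Other pseudocounts, filters, scalings, fits and left-out libraries were run.

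The genes and lists were chosen with earlier results of these data known. Genes named from each pathway list are among the 4 with the smallest adjusted p over the 3 comparisons, and genes of like pattern are the 8 with the highest and the 8 with the lowest r, leaving out Gm, Rik and pseudogene names. Some genes that these rules select are not reported here. Cell type lists held late neutrophil, early granule, monocyte, erythroid, mast cell, basophil and eosinophil, B cell, T and NK cell, megakaryocyte and stem cell genes. Software was R 4.3.3, Python 3.11.15, numpy 2.4.6, pandas 2.3.3 and matplotlib 3.10.9.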

Additional observations from a re-analysis of the deposited data

How the results depend on the processing

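Of 630 values of the 10 genes under other settings (30 results, 21 settings), 583 kept their direction and side of the threshold, 28 no longer passed, 12 newly passed and 7 turned sign. In KI_Chd7del against WT, the count of genes called among the 10 was 2 when scaled to the column total and 5 with quantile normalisation, against 8. The values of Mcm2, Mcm3 and Mcm6 turned to 0.04, 0.13 and 0.11 with the first scaling, and those of Mcm3 and Mcm6 to 0.08 and 0.10 with the second. In the same comparison the count was 7 with totals without the late neutrophil genes. It was 8 with relative log expression and with upper-quartile factors. Cdt1 in KI_Chd7del against KI, near 0 as reported, was -0.04 without KI_Chd7del library 3 and -0.02 without KI library 2, and -0.04 to 0.05 over all left-out libraries. Leaving out 1 library, the count was 1 to 8 in KI_Chd7del against KI, 10 throughout in KI against WT and 8 throughout in KI_Chd7del against WT. Mcm7, Mcm10 and Cdc6 newly passed in KI_Chd7del against KI with upper-quartile factors, quantile normalisation and totals without the late neutrophil genes, for a count of 9. With column totals, higher genes made up 7197 of 9703 calls in KI against WT (5084 of 9429 as deposited) and 7004 of 8896 in KI_Chd7del against WT (3842 of 7735). In KI_Chd7del against KI they were 3973 of 6966 with quantile normalisation and 2803 of 6464 as deposited. The cause was not tested. Libraries with the same replicate number did not deviate together (r from -0.153 to 0.109, beside -0.167 to 0.208 for different numbers). With 3 libraries in a group, whose deviations sum to 0, this cannot exclude a pairing. A replicate block gave 5952 calls over all genes and 5 of the 10 in KI_Chd7del against KI, where Mcm4 did not pass (adjusted p = 0.0614), 9121 and 10 in KI against WT, and 7411 and 8 in KI_Chd7del against WT. Depth was not limiting for these genes, whose lowest value was 2493.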

Other observations

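Other blood lineages in the same libraries differed as follows. Of 10 B cell genes, 7 rose and none fell in KI_Chd7del against KI (median log2 0.86), and of 8 megakaryocyte genes 7 rose (median 1.63). In the same comparison 9 of 12 stem cell genes rose and 2 fell (median 0.76), of 12 mast cell, basophil and eosinophil genes 6 rose and 6 fell (median -0.10), and of 8 T and NK cell genes 2 rose and 1 fell. In KI against WT, 7 of 12 stem cell genes rose and 2 fell (median 0.73), erythroid genes split into 5 higher and 4 lower of 12 (median 0.13), and 4 of 8 T and NK cell genes fell and 1 rose. The summed T and NK cell list took 0.0122% to 0.0185% of the total in KI_Chd7del, 0.00691% to 0.0130% in KI and 0.0215% to 0.0227% in WT. Most of this sum was a single gene, Nkg7, so the sum does not describe the list as a whole. Nkg7 had 3961, 5250 and 5141 in KI_Chd7del, 1633, 2953 and 1641 in KI, and 8021, 7721 and 8646 in WT. Of all genes tested, 17.5% were called higher and 22.9% lower in KI_Chd7del against KI, and 31.8% higher and 27.2% lower in KI against WT, so the erythroid counts in KI against WT lie near the share of all genes.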
